A study of Rattus norvegicus with 18 samples.

Results

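The genes described here are those of the integrated stress response and the unfolded protein response, followed in primary rat cortical neurons that received a control shRNA or an shRNA against CHD5, a brain-restricted chromatin remodeling ATPase. A list of 49 genes was matched to the gene symbols of the array, with the endings for predicted and mapped genes removed and 1 probe kept per gene, the one with the highest mean signal. Of the 49 genes, 41 had a probe under their symbol, and 38 of these were detected on at least 1 array and could be tested, out of 11079 probes kept of 22523. Atf3, Atf6 and Hyou1 had probes that were not detected on any array. A further 6 genes were found through their gene ID under older names. Of these, Ppp1r15a, Hsp90b1 and Sel1l were detected and are given beside the 38, and Ern1, Sesn2 and Edem1 were not detected. Psat1 and Mthfd2 had no probe that could be matched.

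When unfolded proteins accumulate in the endoplasmic reticulum (ER), the kinase PERK (Eif2ak3), the nuclease IRE1 (Ern1) and ATF6 are activated, and the kinase GCN2 (Eif2ak4) is activated when amino acids are scarce. PERK and GCN2 phosphorylate the translation factor eIF2 alpha (Eif2s1), which lowers protein synthesis but favours translation of ATF4, a transcription factor for amino acid synthesis, amino acid transport and tRNA charging. IRE1 splices the mRNA of Xbp1, and XBP1 and ATF6 raise ER chaperones and the machinery of ER-associated degradation. Neurons carry a heavy secretory and membrane protein load, and both pathways are well known in them. Splicing of Xbp1, phosphorylation and protein amounts were not measured by these arrays.

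Neurons from the cortex of E18 rats were infected for 6 hours on day 1 of culture with pLKO.1 lentivirus packaged in HEK-293T cells, a human embryonic kidney line. One group received a scramble shRNA (control) and the other CHD5 shRNA, and RNA was harvested on day 5, 9 or 12, which gave 6 groups of 3 replicates called a, b and c. The labels name 1 CHD5 shRNA treatment, no probe of Chd5 was analysed, and nothing states that the replicates were separate cultures, so that p-values measure the spread between these samples only. Neuronal markers were present in all groups (11 of 11 markers with a probe detected on every array), and astrocyte markers were present too and increased with time.

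Levels are given as normalized log2 signals, in which each array's log2 signals were set to the same mean and spread, and a difference of 1 is a doubling on that scale. A gene was called changed when its adjusted p in limma, computed over all 11079 probes, was under 0.05. The mean signal was 400 to 789 on 17 arrays, and 134.8 on replicate b of the day 9 control, where 7047 probes were detected against 8360 to 9931 on the others. This array was kept, and the results that moved most without it are given both ways. Without it 1.49%, 10.8% and 13.3% of all probes were called after depletion on days 5, 9 and 12, in place of 0.171%, 5.89% and 5.47%.

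Response elements of these pathways are short and well defined, and the promoters of 36 of the 41 genes with a probe were in the RefSeq table used (GRCr8). In the 250 bases before the transcription start, the core of the C/EBP-ATF response element, which ATF4 binds (TGATGNAA, either strand), was found in 9 of the 36 promoters (25%), against 3.27% of 27457 promoters in the table. These were the promoters of Ppp1r15b, Trib3, Chac1, Aars, Iars, Mars, Nars, Tars and Herpud1. The complete ER stress response element, which ATF6 and XBP1 act through (CCAAT and CCACG separated by 9 bases, either strand), was found in 5 (13.9%), against 0.0765% of the table, namely Xbp1, Hspa5, Calr, Canx and Dnajc3. The core of the unfolded protein response element (TGACGTGG, either strand) was found in Hyou1 alone, against 0.55% of the table. These matches are descriptions of the letters in this window and were not tested. The motifs do not overlap in the promoters shown. Shown are 2 promoters of each main kind, with the motif in capitals. Chac1 (chr3:126795881-126796130, plus strand) and Herpud1 (chr19:10614708-10614957, minus strand) hold the C/EBP-ATF core, and Xbp1 (chr14:84604373-84604622, plus strand) and Hspa5 (chr3:38452766-38453015, plus strand) hold the ER stress response element. The Herpud1 window lies inside the annotated span of the gene (chr19:10604360-10624168), so the start used for it was an internal one.
Chac1: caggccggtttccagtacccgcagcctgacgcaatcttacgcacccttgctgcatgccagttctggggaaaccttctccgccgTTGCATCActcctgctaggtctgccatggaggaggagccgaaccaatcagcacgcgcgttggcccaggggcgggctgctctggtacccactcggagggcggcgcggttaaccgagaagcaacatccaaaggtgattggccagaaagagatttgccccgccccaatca
Herpud1: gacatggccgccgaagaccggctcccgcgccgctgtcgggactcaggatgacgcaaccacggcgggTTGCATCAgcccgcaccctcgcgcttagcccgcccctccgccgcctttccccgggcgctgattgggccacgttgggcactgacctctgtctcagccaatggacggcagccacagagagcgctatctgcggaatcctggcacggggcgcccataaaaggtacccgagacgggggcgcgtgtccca
Xbp1: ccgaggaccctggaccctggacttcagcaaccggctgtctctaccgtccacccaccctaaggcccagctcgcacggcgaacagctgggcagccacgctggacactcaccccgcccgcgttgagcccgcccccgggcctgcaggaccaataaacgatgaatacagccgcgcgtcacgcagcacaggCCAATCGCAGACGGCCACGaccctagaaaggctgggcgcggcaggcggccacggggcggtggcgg
Hspa5: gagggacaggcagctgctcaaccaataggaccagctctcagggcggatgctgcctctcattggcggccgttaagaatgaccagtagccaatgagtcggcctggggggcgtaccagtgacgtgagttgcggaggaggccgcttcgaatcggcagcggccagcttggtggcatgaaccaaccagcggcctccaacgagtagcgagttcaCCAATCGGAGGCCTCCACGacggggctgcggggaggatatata

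The first question was whether the stress genes differed between CHD5 shRNA and control cultures of the same day. Ddit4, an inhibitor of the growth kinase mTORC1 that ATF4 and other stress factors induce, was lower in CHD5 shRNA cultures on days 9 and 12, and Phgdh, the first enzyme of serine synthesis, was lower on day 12. The tRNA synthetases Cars and Yars, for cysteine and tyrosine, were higher on day 9. The regulators Atf4, Atf5, Ddit3 and Xbp1, the chaperone Hspa5 and the sensor Eif2ak3 did not pass the test on any day. On day 5 no gene of the 38 was called, against 0.171% of all probes (2 genes had an unadjusted p under 0.05, and an approximation of the study's criteria selected 0). On day 9, 3 of 38 were called (7.89%), against 5.89% of all probes, and on day 12, 2 of 38 (5.26%), against 5.47%. The shares called were near those of all probes on both days. The 3 control and 3 CHD5 shRNA replicates did not overlap for 2, 12 and 16 of the 38 genes on days 5, 9 and 12, against 11.0%, 20.6% and 38.2% of all probes. The median difference of the 38 genes was 0.00 on each day, and that of all probes was 0.01, -0.02 and 0.01.

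**Figure D1:**
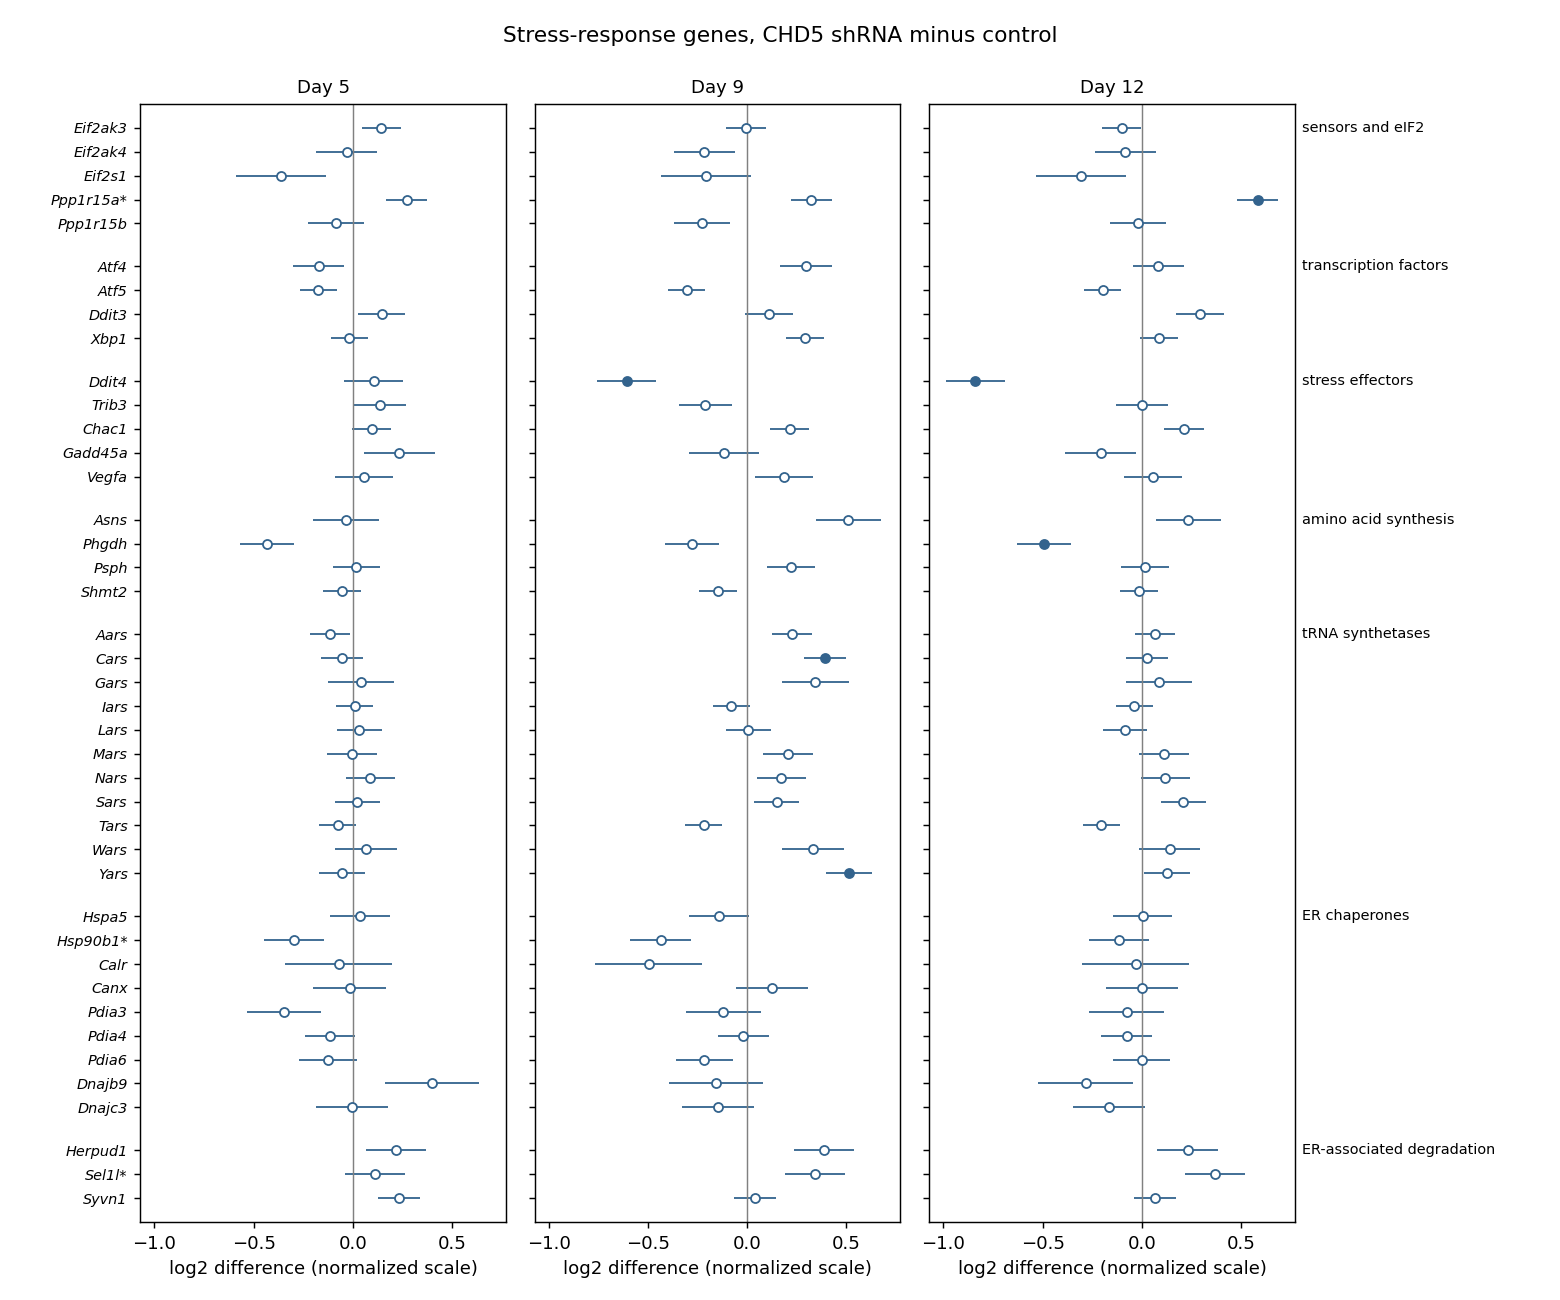
Difference in normalized log2 signal, CHD5 shRNA minus control, of each stress-response gene (rows, grouped by role) on days 5, 9 and 12, with bars for the standard error and filled points for genes called by limma. Asterisks mark genes found under an older name. Ddit4 lies at -0.61 and -0.84 on days 9 and 12, and most other genes lie close to 0.

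Ddit4 had normalized log2 levels of 9.69, 9.87 and 10.19 in the day 5 control replicates a, b and c, and of 9.99, 10.05 and 10.02 in CHD5 shRNA cultures. By day 12 the control levels were 10.49, 10.75 and 10.55, and those of CHD5 shRNA cultures were 9.87, 9.86 and 9.55. All 3 day 12 control replicates were above all 3 CHD5 shRNA replicates, whereas the groups overlapped on day 5. The day 12 means were 10.60 ± 0.14 and 9.76 ± 0.18 (SD, n = 3 each), a difference of -0.84 (SE 0.15) or 1.79-fold lower (limma adjusted p = 0.0023). On day 9 the control replicates had 10.23, 10.87 and 10.48 and the CHD5 shRNA replicates 9.95, 9.82 and 9.98, again without overlap. The day 9 difference was -0.61 (SE 0.15, limma adjusted p = 0.0219), and -0.45 (adjusted p = 0.0347) without control replicate b, which held the highest of the control levels. Ddit4 rose from day 5 to day 12 in control cultures, by 0.68 (SE 0.15, limma adjusted p = 0.00231), and showed -0.26 (adjusted p = 0.266) in CHD5 shRNA cultures. The test of the difference between these changes gave -0.94 (SE 0.21, limma adjusted p = 0.075), which missed the threshold, and passed it when the fit left out day 9 control replicate b.

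Phgdh increased in both kinds of culture and was lower with CHD5 shRNA. On day 5 it had normalized log2 levels of 9.971, 9.900 and 9.995 in control and 9.71, 9.37 and 9.49 in CHD5 shRNA cultures. On day 12 the levels were 11.42, 11.35 and 11.27 in control and 10.76, 10.97 and 10.83 in CHD5 shRNA cultures. The groups did not overlap on either of these days. The day 12 difference of -0.49 (SE 0.14, 1.41-fold lower) passed the test (limma adjusted p = 0.0406), though it missed the threshold when any 1 of 11 of the 18 arrays was left out (adjusted p up to 0.175), while the day 5 difference of -0.43 (adjusted p = 0.377) did not. On day 9 control replicate b had 10.57, below the other control replicates (10.98 and 11.28) and below all 3 CHD5 shRNA replicates (10.70, 10.71 and 10.58). The day 9 difference of -0.28 was not called (limma adjusted p = 0.26). Without that array Phgdh was called on all 3 days, at -0.44, -0.48 and -0.50 (limma adjusted p = 0.0232, 0.00818 and 0.00141), in a fit that called more of all probes on each day.

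Astrocytes are known for high serine synthesis, and astrocyte markers, like Phgdh and Ddit4, were lower in CHD5 shRNA than in control cultures on day 12. Of 15 astrocyte markers, 12 were kept. In CHD5 shRNA cultures none of them was called on day 5 (2 had an unadjusted p under 0.05 in limma), 9 were lower on day 9 and 8 were lower on day 12, and all 12 rose between day 5 and day 12 with either virus, as Phgdh did, whereas Ddit4 was called higher over these days in control cultures and not in CHD5 shRNA cultures. Their summed signal on day 12 was 67959 to 79294 in control and 33595 to 38793 in CHD5 shRNA cultures. Aqp4, Gjb6 and Sox9 were not detected in either group on day 5. Of the 4 fibroblast markers kept, 1, 3 and 2 were lower on days 5, 9 and 12, and of 9 oligodendrocyte markers 2 were lower on each of the later days. Without day 9 control replicate b, 1 oligodendrocyte marker was called higher on day 9. Of 11 neuronal markers, 0, 1 and 1 were then called on days 5, 9 and 12, all higher. Those above 0 were 4, 9 and 7 of the 11. In that fit 1.49%, 10.8% and 13.3% of all probes were called. In bulk samples fewer cells of a type and less RNA per cell cannot be told apart. The part of these cells in the levels of Phgdh and Ddit4 was not tested.

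Among the tRNA synthetases, which load amino acids on tRNAs, 2 of 11 were called on day 9 and both were higher, against 5.89% of all probes called. Their median difference was 0.21 on day 9 and 0.09 on day 12, with 9 and 8 of the 11 genes above 0. Without control replicate b of day 9 the day 9 median was 0.13, with 8 of the 11 above 0. In that fit 3 were called (27.3%, against 10.8% of all probes). Yars had normalized log2 levels of 10.18, 9.82 and 10.20 in day 9 control and 10.50, 10.50 and 10.73 in day 9 CHD5 shRNA cultures. No control replicate reached the lowest CHD5 shRNA replicate, and control replicate b was the lowest. The difference was 0.51 (SE 0.12, 1.43-fold, limma adjusted p = 0.0155), and 0.40 (adjusted p = 0.0194) without that replicate. Cars had 7.56, 7.60 and 7.72 in control and 7.91, 8.04 and 8.11 in CHD5 shRNA cultures on day 9, also without overlap. This difference was 0.39 (SE 0.11, 1.31-fold, limma adjusted p = 0.0358), and on day 12 the Cars difference was 0.03 (adjusted p = 0.987). The change of the Cars and Yars differences from day 9 to day 12 was not called (-0.36 and -0.38, limma adjusted p = 0.994 for both). On day 12 the mean level of Cars was 7.75 in control and 7.78 in CHD5 shRNA cultures, and that of Yars was 10.18 and 10.31.

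**Figure D2:**
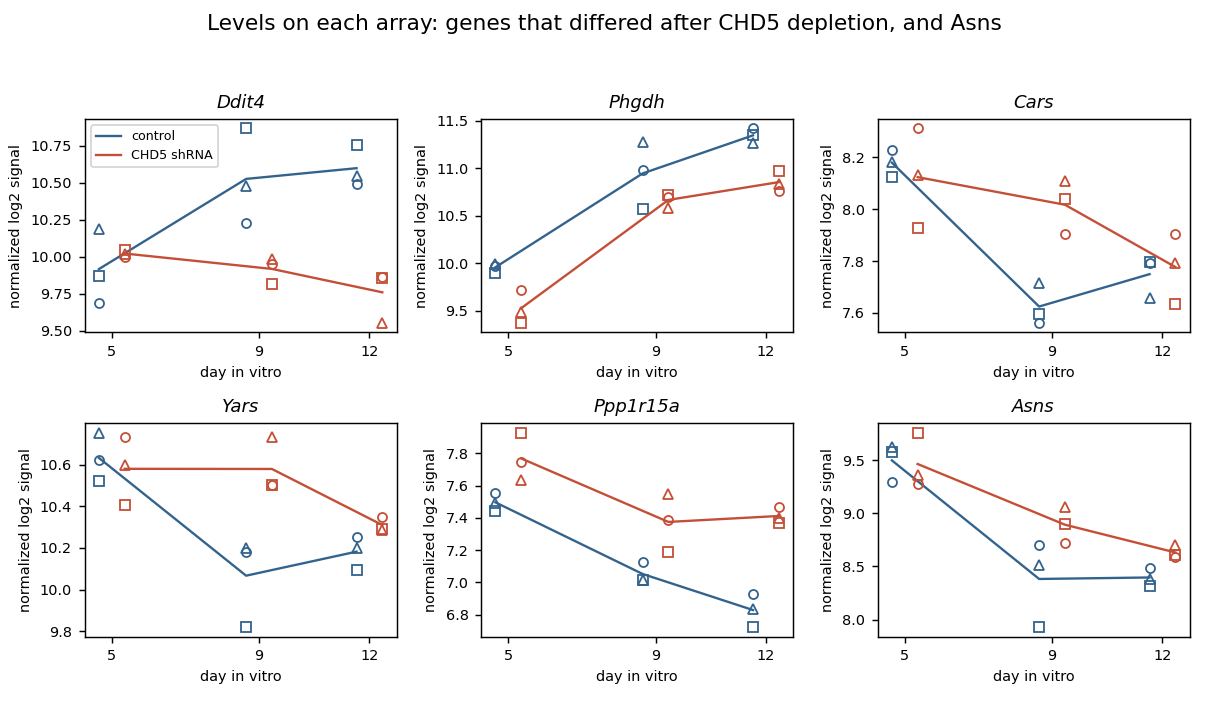
Normalized log2 signal on each array against day in vitro, in control (blue) and CHD5 shRNA (red) cultures, for 6 genes. Circles, squares and triangles are replicates a, b and c, lines join group means, and the groups are drawn slightly apart at each day. Ddit4 and Phgdh lie lower with CHD5 shRNA on day 12, and Ppp1r15a lies higher (7.37 to 7.47 against 6.72 to 6.93).

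The day 9 calls rested on few arrays. When only the 6 arrays of day 9 were fitted, limma called none of the 38 genes (5 had an unadjusted p under 0.05), and 0 of all probes. The differences of Ddit4, Yars and Cars were then -0.57, 0.48 and 0.35. Without CHD5 shRNA replicate c none of the 38 was called either (6 had an unadjusted p under 0.05), and 98 of all probes were. Without day 9 control replicate b, 8 of 38 were called (10.8% of all probes). These were Ddit4, Cars and Yars, and also Atf5, Gadd45a, Phgdh and Dnajc3, which were lower, and Nars, which was higher. With quantile normalization 6 were called, 3 lower and 3 higher, and with neqc 4 were called, 2 lower and 2 higher, beside 1 lower and 2 higher here. The share of all probes called under these scalings is not given here, so the counts cannot be read as particular to these genes. On day 12 Ddit4 and Phgdh were also called without that control array, and when only the 6 arrays of day 12 were fitted, 10 of 38 genes and 2590 of all probes were called. Among those 10 were Atf5 (-0.20, limma adjusted p = 0.0349), Ddit3 (0.29, adjusted p = 0.00875) and Asns (0.23, adjusted p = 0.0242). Atf4, Xbp1, Hspa5 and Eif2ak3 were not among them.

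Of the sensors and regulators of eIF2, the 4 tested genes (Eif2ak3, Eif2ak4, Eif2s1 and Ppp1r15b) were not called on any day. Ppp1r15a, which encodes GADD34, the stress-induced subunit of the phosphatase that removes the phosphate from eIF2 alpha, was measured under an older name. Its normalized log2 levels on day 12 were 6.93, 6.72 and 6.83 in control and 7.47, 7.37 and 7.40 in CHD5 shRNA cultures. Every CHD5 shRNA replicate was above every control replicate, and the same held on days 5 and 9. The day 12 difference was 0.58 (SE 0.10, 1.5-fold, limma adjusted p = 0.00232), and 0.32 (adjusted p = 0.0756) and 0.27 (adjusted p = 0.614) on days 9 and 5. The signal was low, between 69.9 and 321, and the probe was detected on 16 of 18 arrays. If the genes found under an older name are counted, 3 of 41 were called on day 12.

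The transcription factors showed small differences. Atf4 had normalized log2 levels of 10.62, 10.06 and 10.54 in day 9 control and 10.63, 10.62 and 10.85 in day 9 CHD5 shRNA cultures. The 3 CHD5 shRNA replicates were just above the control replicates, of which b was far below the other two, and the difference of 0.30 (SE 0.13) was not called (limma adjusted p = 0.203), and was 0.13 (adjusted p = 0.46) without control replicate b. On day 12 the difference of Atf4 was 0.08 (adjusted p = 0.917). Xbp1 was at 0.29 (SE 0.10, limma adjusted p = 0.0817) on day 9, or 0.20 (adjusted p = 0.141) without that replicate, and at 0.09 (adjusted p = 0.816) on day 12. Ddit3, which encodes the pro-apoptotic factor CHOP, was at 0.29 (SE 0.12, limma adjusted p = 0.206) on day 12, where the groups did not overlap. Atf5, a factor related to ATF4, had levels of 8.33, 8.24 and 8.37 in day 9 control and 7.88, 8.04 and 8.10 in CHD5 shRNA cultures. This gave -0.30 (SE 0.09, limma adjusted p = 0.0629), and -0.35 (adjusted p = 0.0244) without control replicate b. Atf3 was at background, with signals between 64.7 and 107, so that its level could not be compared.

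The remaining effectors, chaperones and degradation genes were not called after CHD5 depletion. Trib3, a pseudokinase induced by ATF4 and CHOP, was detected on 2 of 18 arrays, both of day 5. Asns, the asparagine synthetase and a standard readout of ATF4, had normalized log2 levels of 8.70, 7.93 and 8.51 in day 9 control and 8.72, 8.90 and 9.06 in CHD5 shRNA cultures. The groups were separate by a small gap, and the difference of 0.51 (SE 0.17, limma adjusted p = 0.0788) fell to 0.29 (adjusted p = 0.17) without control replicate b. Hspa5, the main ER chaperone BiP, was among the brightest of these probes with signals between 922 and 11044. Its day 12 levels were 12.50, 12.35 and 12.23 in control and 12.34, 12.36 and 12.40 in CHD5 shRNA cultures. The CHD5 shRNA levels lay within the range of the control levels, and the difference was 0.00 (SE 0.15, limma adjusted p = 0.999). Of the 8 ER chaperones and folding enzymes tested, none was called on any day (limma), and none had an unadjusted p under 0.05. Without day 9 control replicate b, Dnajc3, an ER co-chaperone named here after its values were seen, was called on day 9 (-0.48, adjusted p = 0.00385, against -0.15 with that array). Herpud1, a membrane component of ER-associated degradation, was at 0.39 (SE 0.15, limma adjusted p = 0.148) on day 9, and at 0.21 (adjusted p = 0.319) without control replicate b.

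**Figure D3:**
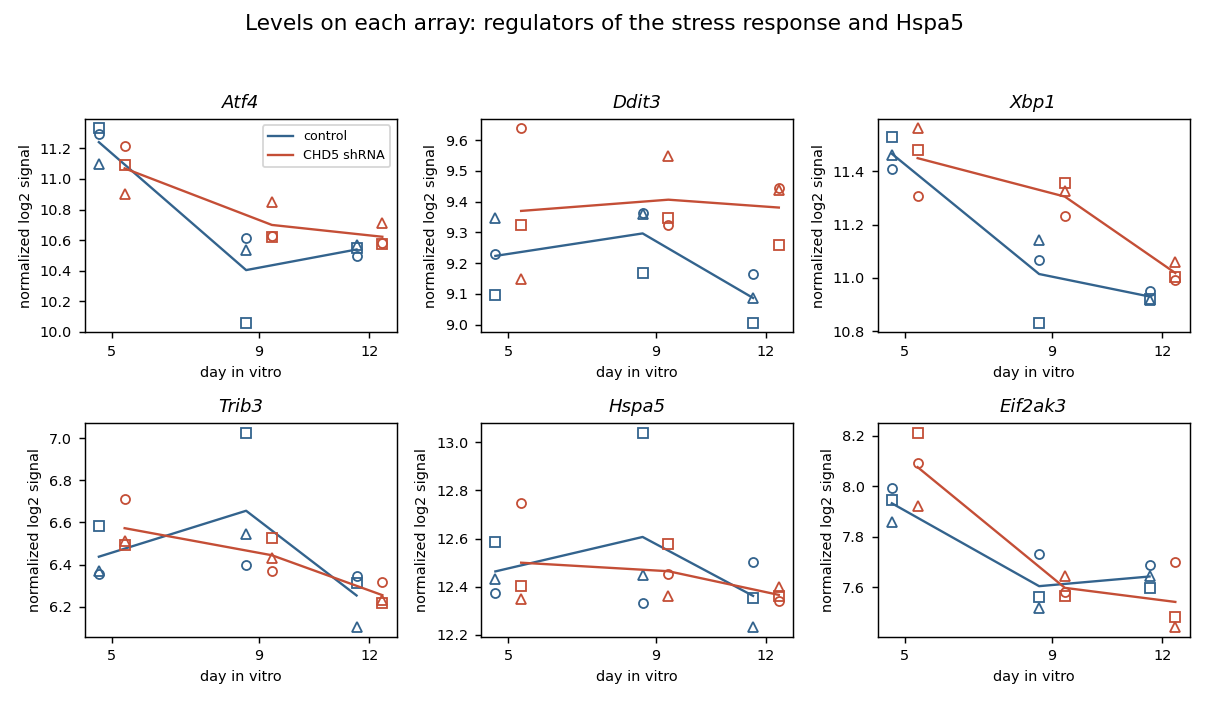
Normalized log2 signal on each array against day in vitro, in control (blue) and CHD5 shRNA (red) cultures, for Atf4, Ddit3, Xbp1, Trib3, Hspa5 and Eif2ak3. Circles, squares and triangles are replicates a, b and c, and lines join group means. Atf4, Xbp1 and Eif2ak3 were highest on day 5 with either virus, and the day 9 control square (replicate b) stood apart for Atf4, Xbp1, Trib3 and Hspa5.

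The change of the depletion difference between days was not called for any of the 38 genes. Between days 5 and 9, 7 genes had an unadjusted p under 0.05, between days 5 and 12, 1 gene, and between days 9 and 12, 2 genes (limma). Of all probes, 0%, 0.153% and 0% were called. The gene with the smallest p between days 5 and 12 was Ddit4.

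The second question was how the same genes changed as the cultures aged. Between day 5 and day 12 of control culture 13 of the genes fell and 2 rose. Among those that fell were Atf4, Xbp1, the PERK gene Eif2ak3 and Asns, and those that rose were Phgdh and Ddit4. The 15 calls were 39.5% of the 38 genes, against 23.6% of all probes, with 12.5% of all probes lower and 11.1% higher. In CHD5 shRNA cultures 11 genes were called (28.9%, against 17.0% of all probes), 10 lower and 1 higher, with 8.56% of all probes lower and 8.46% higher. The median difference of the 38 genes was -0.24 in control and -0.28 in CHD5 shRNA cultures, and that of all probes was -0.02 and -0.01. The medians of the 38 genes were between -0.34 and -0.26 under quantile normalization, median centring and neqc. The control and CHD5 shRNA series share no arrays. Their calls came from the same fit with a shared estimate of the spread per probe, so the lists were not independent. The 11 genes called with CHD5 shRNA were all called in the same direction in control cultures, which is 100% of the first list and 73.3% of the second. Of all probes called with CHD5 shRNA, 74.9% were called in the same direction in control cultures, which is 53.9% of those called there. Ddit4, Gars, Mars and Yars were called in control cultures alone, and for none of them was the difference between the 2 changes called.

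**Figure D4:**
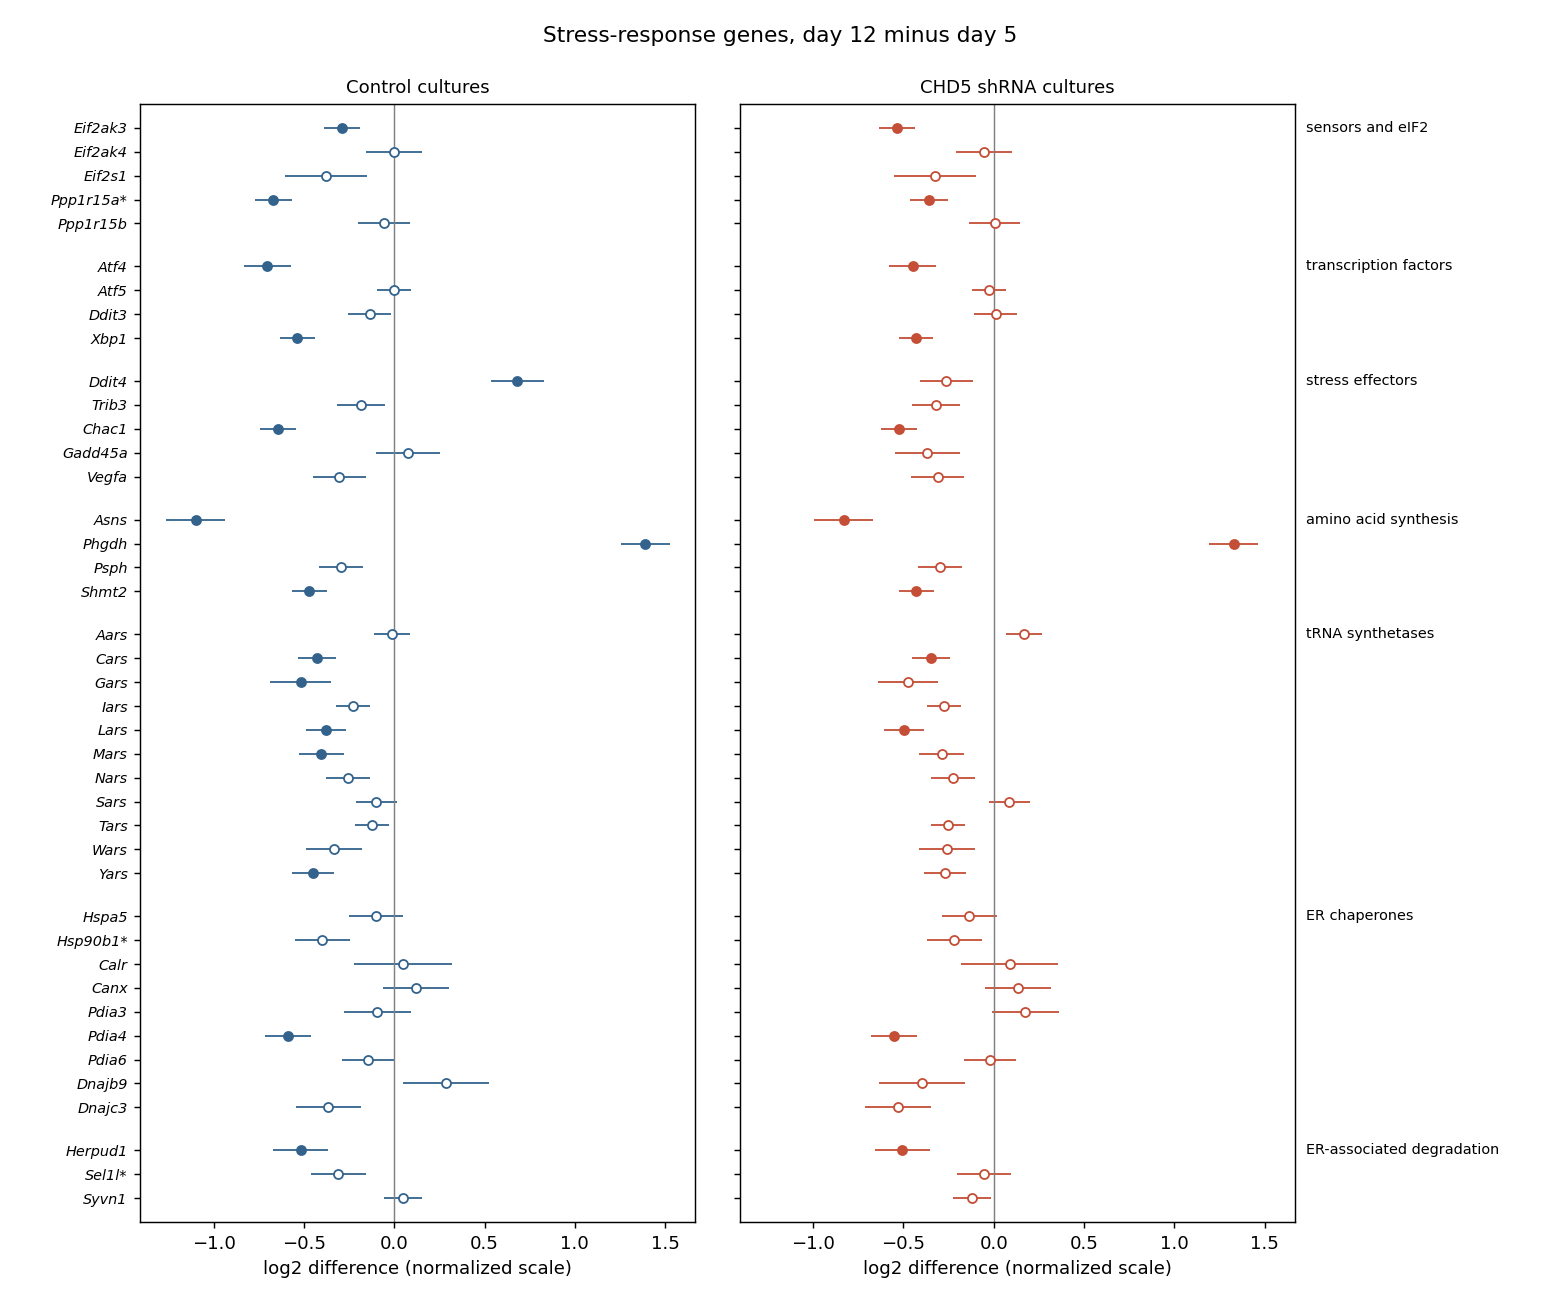
Difference in normalized log2 signal, day 12 minus day 5, of each stress-response gene (rows, grouped by role) in control (blue) and CHD5 shRNA (red) cultures, with bars for the standard error and filled points for genes called by limma. Asterisks mark genes found under an older name. Asns, Atf4, Chac1, Xbp1, Pdia4 and Herpud1 lie below 0 in both panels, Phgdh lies at 1.39 and 1.33, and Ddit4 lies on opposite sides of 0.

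Asns showed the largest fall. Its normalized log2 levels were 9.29, 9.58 and 9.62 on day 5 and 8.49, 8.32 and 8.38 on day 12 in control cultures, and 9.27, 9.76 and 9.36 against 8.59, 8.61 and 8.70 in CHD5 shRNA cultures. Each day 12 replicate was below each day 5 replicate with either virus. Asns fell by 1.1 (SE 0.17, 2.14-fold, limma adjusted p = 7.21e-05) in control and by 0.83 (SE 0.17, 1.78-fold, adjusted p = 0.00169) in CHD5 shRNA cultures. Atf4 had 11.29, 11.33 and 11.10 on day 5 and 10.50, 10.55 and 10.57 on day 12 in control, and 11.21, 11.09 and 10.90 against 10.58, 10.58 and 10.71 with CHD5 shRNA. The days did not overlap, and the falls were 0.70 (limma adjusted p = 0.000548) and 0.45 (adjusted p = 0.0222). The level of Atf4 mRNA does not report on its translation, which is where eIF2 phosphorylation acts.

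Xbp1, and Chac1, a glutathione-degrading enzyme induced by ATF4, fell with either virus. The fall of Chac1 was 0.64 (SE 0.10, limma adjusted p = 0.000104) in control and 0.52 (adjusted p = 0.00119) with CHD5 shRNA. Its signal dropped from between 189 and 253 on day 5 to between 114 and 155 on day 12, not far above the background of about 70.9. Xbp1 decreased by 0.54 (SE 0.10, limma adjusted p = 0.000383) in control and by 0.43 (adjusted p = 0.00377) in CHD5 shRNA cultures. The PERK gene Eif2ak3 fell by 0.29 (limma adjusted p = 0.0403) and by 0.53 (adjusted p = 0.0009), and Ppp1r15a fell by 0.67 (adjusted p = 9.84e-05) and by 0.36 (adjusted p = 0.0229). Ddit3 and Atf5 were not called with either virus, at -0.14 and 0.00 in control cultures.

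All 11 tRNA synthetases were below 0 in control cultures, and 5 were called (45.5%, against 23.6% of all probes). These were Cars, Gars, Lars, Mars and Yars, the largest being Gars at -0.52 (SE 0.17, limma adjusted p = 0.0309). With CHD5 shRNA 9 of the 11 were below 0 and 2 were called, Cars and Lars (18.2%, near the 17.0% of all probes). Without day 9 control replicate b, 8 were called in each series (72.7%, against 39.0% and 32.2% of all probes). Of the promoters with the C/EBP-ATF core, those of Chac1, Mars and Herpud1 belonged to genes called lower in control cultures, and those of Ppp1r15b, Trib3, Aars, Iars, Nars and Tars to genes not called. In amino acid synthesis Shmt2, the mitochondrial serine hydroxymethyltransferase, fell by 0.47 (limma adjusted p = 0.00149) and by 0.43 (adjusted p = 0.00464). Phgdh went the other way, and rose by 1.39 (SE 0.14, 2.62-fold, limma adjusted p = 4.43e-07) in control and by 1.33 (2.51-fold, adjusted p = 1.6e-06) in CHD5 shRNA cultures. All 12 astrocyte markers rose over the same days, by a median of 2.68 in control and 2.15 in CHD5 shRNA cultures, and their part in this rise was not tested.

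Of 8 chaperones and folding enzymes, 1 was called over time in each series (12.5%, against 23.6% and 17.0% of all probes). This was Pdia4, a protein disulfide isomerase, which fell by 0.59 (SE 0.13, limma adjusted p = 0.00216) in control and by 0.55 (adjusted p = 0.00529) in CHD5 shRNA cultures. Without day 9 control replicate b, 2 of the 8 were called in each series (25.0%, against 39.0% and 32.2% of all probes). Hspa5 was at -0.10 (SE 0.15, limma adjusted p = 0.686) and -0.13 (adjusted p = 0.619). Of the 5 genes with the ER stress response element, Xbp1 was called lower, and Hspa5, Calr, Canx and Dnajc3 were not called. Dnajc3 was at -0.37 (limma adjusted p = 0.163) and -0.53 (adjusted p = 0.0517), and was called lower in both series without day 9 control replicate b (-0.37, adjusted p = 0.00231, and -0.54, adjusted p = 9.94e-05), with quantile normalization and with neqc. Herpud1 fell by 0.52 (SE 0.15, limma adjusted p = 0.0185) and by 0.51 (adjusted p = 0.0272), from levels of 9.63, 9.62 and 9.78 to 9.08, 9.14 and 9.24 in control cultures. The day 12 replicates were all below the day 5 replicates.

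More calls lay between days 5 and 9 than between days 9 and 12, for these genes as for all probes. The changes over these intervals, which differ in length, were not compared by a test. In control cultures 14 of 38 genes were called between days 5 and 9 (12 lower and 2 higher, against 12.8% and 9.18% of all probes, and 22.0% in all), and none between days 9 and 12 (6 had an unadjusted p under 0.05 in limma, and 4.16% of all probes were called). In CHD5 shRNA cultures 7 were called between days 5 and 9 (6 lower and 1 higher, against 4.72% and 4.61% of all probes, and 9.33% in all), and none between days 9 and 12 (3 had an unadjusted p under 0.05, and 1.37% of all probes were called). Without day 9 control replicate b, 15 genes were called between days 5 and 9 in control and 15 in CHD5 shRNA cultures (21.0% and 25.8% of all probes), and 0 and 1 between days 9 and 12 (6.34% and 4.95%), the 1 being Xbp1 (-0.29, limma adjusted p = 0.0344). Between days 5 and 12 there were then 20 and 21, against 39.0% and 32.2% of all probes.

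Other genes of the same pathways, 87 further synthetases, amino acid transporters, eIF2B subunits and ER proteins, were listed, and 69 of them were tested. After CHD5 depletion 1, 1 and 3 were called on days 5, 9 and 12 (1.45%, 1.45% and 4.35%, against 0.171%, 5.89% and 5.47% of all probes). Without day 9 control replicate b the counts were 1, 6 and 6 (1.45%, 8.70% and 8.70%, against 1.49%, 10.8% and 13.3% of all probes). Txnip, a thioredoxin-binding protein, was higher on day 5 (0.62, SE 0.11, limma adjusted p = 0.0172), and Eif2b3, a subunit of the eIF2 exchange factor, was higher on day 9 (0.44, SE 0.11, adjusted p = 0.027). On day 12 the arginine transporter Slc7a3 was higher (0.49, SE 0.13, limma adjusted p = 0.0295), as was Mbtps1, the protease that activates ATF6 (0.39, SE 0.10, adjusted p = 0.0255), and the translocation factor Sec62 was lower (-0.33, SE 0.09, adjusted p = 0.0457). Between days 5 and 12, 21 were called in control (15 lower and 6 higher) and 18 in CHD5 shRNA cultures (14 lower and 4 higher), which is 30.4% and 26.1%, against 23.6% and 17.0% of all probes.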

How the data were processed

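RNA of 18 samples was hybridised to Illumina RatRef-12 arrays. The deposited signal intensities are bead means per probe, which the authors extracted with GenomeStudio 1.1.1, and judged by their values they were neither normalized nor background-subtracted. The deposited detection p-values compare each probe with negative control beads. Probes were kept if their detection p-value was 0.02 or lower on any array. Following the study's methods, log2 signals were Z-transformed within each array, and then rescaled to the average SD over arrays. limma 3.58.1 in R 4.3.3 was fitted to 6 groups of 3 arrays, with Benjamini-Hochberg adjustment within a contrast. The 6 second measurements of replicate a were used only in alternatives. The number of arrays limits the precision, and an exact permutation test of 3 against 3 arrays cannot go below p = 0.1. The members and lists were chosen with earlier results of these data known. Named were genes called after depletion, 9 regulators and readouts, and in each role the largest called rise and fall with time in control cultures. Alternatives were quantile normalization, median centring, neqc (offset 16), other detection filters, a replicate block, array weights, second measurements, any probe of a gene, only the arrays of a day, an approximation of the study's criteria, leaving out each array and, chosen after seeing the data, counting genes found under older names. That approximation used a t-test on Z-scores and Benjamini-Hochberg adjustment for the false discovery rate, for which the study cites another method. Deviations from the group means correlated between arrays of the same letter by 0.27, 0.17 and 0.38 at day 5, which counted as pairing, and by 0.43, 0.15 and -0.20 at day 9 and 0.05, 0.15 and 0.01 at day 12, which did not. The main fit was unpaired on every day, so the p-values given for day 5 leave this pairing out, and a replicate block was used only as an alternative. The procedure was tested on simulated data.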

Additional observations from a re-analysis of the deposited data

How the results depend on the processing

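The fall of Ddit4 on day 12 was called under all 29 alternatives, between -0.90 and -0.74 (limma adjusted p from 3.15e-08 to 0.0211). Ppp1r15a, found under an older name, was also called higher on day 12 under all 29 (0.53 to 1.04, limma adjusted p up to 0.0299). Among the 38 genes, the other calls after depletion depended on the arrays and the scaling. Of 38 genes, 3 were called on day 9, and the number was 6 with quantile normalization, 0 with median centring, 0 with only the 6 arrays of day 9 and 0 by an approximation of the study's criteria. On day 12 it was 2, and became 1 with median centring, 1 without a detection filter, 10 with only the 6 arrays of day 12 and 11 with array weights, whose fit stopped before it converged. Leaving out each array gave 0 to 1 on day 5, 0 to 8 on day 9 and 1 to 2 on day 12. On day 9 the number was 1 without CHD5 shRNA replicate a, 1 without b and 0 without c, 6 without control replicate a and 8 without control replicate b. On day 12 Phgdh was lost without any 1 of 11 arrays. Between days 5 and 12 the number called in control cultures was 15, 7 with median centring and 11 to 20 when each array was left out, and in CHD5 shRNA cultures it was 11, 4 with median centring, 26 with array weights and 8 to 21 when each array was left out. The change of the depletion difference was called for 0 genes, and for 0 to 1 when each array was left out: Gadd45a between days 5 and 9 without day 9 control replicate b, and Ddit4 between days 5 and 12 without day 9 control replicate a or b or day 5 control replicate c. Array weights gave 1 there, also Ddit4. With a replicate block within a day the number was 0 on day 5, 3 on day 9 and 1 on day 12, where Phgdh was lost, and a block by letter over all days gave 0, 3 and 2, and 12 in CHD5 shRNA cultures over time. No named gene that was called reversed its direction under any alternative. The cause of these shifts was not tested. Most of these counts are given without the share of all probes called under the same setting, so the shifts cannot be read as particular to these genes. Signals of Trib3, Chac1 and Ppp1r15a were near background, which limits their comparison.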
